A study of Mus musculus with 6 samples.

Results

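The 5 genes described here, Cacna1a, Cacna1b, Cacna1c, Cacna1d and Cacna1e, encode the pore subunits of the neuronal high-voltage-activated calcium channels. They were chosen by gene symbol from the 23306 rows of a deposited count table, and each of the 5 symbols matched a single row. All 5 passed the filter on low counts and stood among the 12449 genes tested. The table holds RNA bound to tagged ribosomes from parvalbumin neurons of the mouse frontal cortex, the fast-spiking inhibitory interneurons of that tissue. Knockout mice (cKO) carried a conditional deletion of Fxr1, an RNA-binding protein gene of the fragile X family, driven by PV-Cre. Wild type mice (WT) were the controls. Mice of both genotypes were male and of strain C57BL6, and per the labels' protocols came from the PV-Cre::RiboTag cross, in which Cre switches on an HA-tagged copy of the ribosomal protein gene Rpl22. The labels give no ages. The series has 3 samples per genotype, of which 2 per genotype were analysed: cKO replicates 1 and 3, and WT replicates 2 and 3.

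A high-voltage-activated channel opens on strong depolarisation and admits calcium through one large pore subunit, which is joined by a beta and an alpha2delta subunit. P/Q-type channels (Cacna1a) and N-type channels (Cacna1b) sit at release sites, where their calcium triggers transmitter release, and the terminals of parvalbumin basket cells are known for their reliance on the P/Q type. L-type channels (Cacna1c and Cacna1d) lie mainly on the soma and dendrites and link activity to signalling and gene expression, while the R type (Cacna1e) contributes to dendritic and terminal calcium entry.

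The 5 pore genes are paralogs, so how far their letters differ bears on whether a read can be assigned to a single member. Coding sequences were compared between the members, 5′ to 3′ on the coding strand, from the GENCODE M21 transcripts with mm10 coordinates. The longest exact run shared by the coding sequences of any pair was 43 bases, between the L-type genes Cacna1c (chr6:118654366-118654408, minus strand) and Cacna1d (chr14:30099154-30099196, minus strand). The longest between the release-site genes Cacna1a (chr8:84533418-84533452, plus strand) and Cacna1b (chr2:24721353-24721387, minus strand) was 35 bases. These runs are shown because a shorter read lying wholly inside one could not be assigned to a single gene.
Cacna1c and Cacna1d: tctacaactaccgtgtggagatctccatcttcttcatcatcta
Cacna1a and Cacna1b: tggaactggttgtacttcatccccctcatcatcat

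Each of the other 8 pairs shared at most 32 bases in a row. The sources used here do not give the read length.

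All 5 are long genes. Cacna1a lies on mm10 chromosome 8 at 84388440 to 84640246 and spans 251.8 kb, of which 11.42 kb is annotated as exon in at least one transcript. Cacna1b lies on chromosome 2 at 24603887 to 24763152, with 9.94 kb of exon. Cacna1c lies on chromosome 6 at 118587240 to 119196418 and has the longest span of the 5, 609.2 kb, with 21.19 kb of exon. Cacna1d lies on chromosome 14 at 30039939 to 30491455, with 12.62 kb of exon, and Cacna1e on chromosome 1 at 154390731 to 154884501, with 25.23 kb. Their longest coding sequences are far more alike, from 6.54 kb in Cacna1d to 7.1 kb in Cacna1a. On the opposite strand, exons of the antisense gene Gm16183 overlap those of Cacna1a over 435 bases, and exons of Chdh overlap those of Cacna1d over 589 bases. Chdh had 7 and 10 counts in the cKO libraries and 13 and 14 in the WT libraries, against 847 or more for Cacna1d in each library.

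The 4 libraries held between 9696126 and 10301280 counts. Fxr1, the deleted gene, stood at 17.8 and 18.7 CPM (the count scaled to a library total of 1000000) in the cKO libraries and at 98.4 and 100.6 CPM in the WT libraries. Its log2 fold change, cKO over WT, was −2.45 (SE 0.10; adjusted p = 1.77e-15 by edgeR's quasi-likelihood test). Whether the libraries stem from different mice is not stated, so the p-values reflect spread among libraries that may be technical in part. The edgeR test partly pools this spread over genes, so its p-values, SE and intervals do not measure a single gene's own spread. One library stood apart in Rn45s, the ribosomal RNA precursor gene, with 7110.01 CPM in cKO replicate 1 and 2827 CPM in cKO replicate 3, against 3152 and 3050.5 CPM in the WT libraries. The 10 parvalbumin neuron markers were present at unlike levels over the 4 libraries. Their sum was 11215 and 11256 CPM in cKO and 11555 and 11692 CPM in WT. By sign 7 were lower and 3 higher in cKO, beside 50.4% of all tested genes lower, and 0 passed by edgeR. Gad1 was highest at 4048 to 4354 CPM, Pvalb had 241 to 264 CPM, and Tac1 was lowest at 34.4 to 55.5 CPM. Markers of cells that should lack the Cre were present too. The 8 excitatory neuron markers summed to 816 and 858 CPM in cKO and to 858 and 777 CPM in WT, most of it Camk2a, and the 6 astrocyte markers to 514 and 596 CPM in cKO and 540.1 and 503 CPM in WT. The 8 striatal neuron markers summed to 200 and 224 CPM in cKO and to 213 and 209 CPM in WT. Of these, 6 were higher and 2 lower in cKO. By edgeR 4 had an unadjusted p under 0.05, beside 3.23% of all tested genes, and 0 passed. Whether the cells in the pull-down differed between genotypes was not tested. The pore genes are also expressed by other neurons, and no input fraction was analysed here, so what part of their counts came from parvalbumin neurons was not measured. Nor can fewer cells be told apart from less RNA per cell.

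Cacna1a, the P/Q-type pore gene, was by far the most abundant of the 5. It had 574 and 602 CPM in the cKO libraries and 569.6 and 591 CPM in the WT libraries, from 5523 to 6196 counts each. The genotypes overlapped, and the highest and the lowest of their 4 values came from cKO replicate 3 and WT replicate 2. The means were 588 ± 19.8 CPM in cKO and 580.2 ± 14.98 CPM in WT (SD, n = 2 each). The log2 fold change was 0.02 (SE 0.07; adjusted p = 0.998 by edgeR), and its 95% interval ran from −7.75% to 11.5% of the WT level.

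Cacna1b, the N-type pore gene, had 138 and 133 CPM in the cKO libraries and 143 and 133 CPM in the WT libraries. The cKO values lay close to or within the WT range. Its means were 136 ± 3.62 CPM in cKO and 138 ± 6.62 CPM in WT (SD, n = 2 each), with a log2 fold change of −0.02 (SE 0.08; adjusted p = 0.998 by edgeR) and a 95% interval from −12.0% to 10.2%.

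Of the L-type genes, Cacna1c, whose channel predominates among L-type channels in the brain, had 113 and 99.7 CPM in the cKO libraries and 112 in each WT library. WT replicates 2 and 3 differed by less than 1 CPM and lay between the cKO values, of which replicate 3 was the lowest of the 4. The means were 106 ± 9.53 CPM in cKO and 112 ± 0.581 CPM in WT (SD, n = 2 each). The log2 fold change was −0.07 (SE 0.09; adjusted p = 0.998 by edgeR), with an interval from −15.7% to 7.42%. This was the furthest from 0 among the 5 members, and it rested on cKO replicate 3, without which it was 0.030.

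Cacna1d encodes the L-type pore that opens at less depolarised potentials than that of Cacna1c. It had 92.0 and 98.2 CPM in the cKO libraries and 87.4 and 96.4 CPM in the WT libraries. The genotypes overlapped, with the lowest value in WT replicate 2. Its means were 95.1 ± 4.39 CPM in cKO and 91.9 ± 6.39 CPM in WT (SD, n = 2 each), with a log2 fold change of 0.05 (SE 0.09; adjusted p = 0.998 by edgeR) and an interval from −8.42% to 16.9%. The log2 ratio of Cacna1c to Cacna1d counts was 0.30 and 0.023 in cKO and 0.35 and 0.22 in WT. Their means differed by −0.13, cKO minus WT (exact two-sided permutation p = 0.667, where 2 libraries against 2 cannot go below 0.333).

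Cacna1e, the R-type pore gene, had 123 and 143 CPM in the cKO libraries and 142 and 121 CPM in the WT libraries. Each genotype thus held one high library, cKO replicate 3 and WT replicate 2, and one low library. Its means were 133 ± 13.6 CPM in cKO and 132 ± 14.5 CPM in WT (SD, n = 2 each), and its log2 fold change was 0.02 (SE 0.09; adjusted p = 0.998 by edgeR), with an interval from −10.7% to 14.7%.

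Cacna1e varied most among the members relative to its level. Its coefficient of variation over the 4 libraries was 8.71%, against 2.73% from counting error alone. That of Cacna1a was 2.58% against 1.3%, and those of Cacna1b, Cacna1c and Cacna1d were 3.32%, 5.83% and 5.18% against 2.69%, 3.01% and 3.25%. The exact Poisson 95% intervals of Cacna1e, which cover counting error only, reached 130.5 CPM in cKO replicate 1 and 128 CPM in WT replicate 3, and began at 135 CPM in both cKO replicate 3 and WT replicate 2. Most oligodendrocyte and astrocyte markers also differed in that direction within both genotypes, cKO replicate 3 above replicate 1 and WT replicate 2 above replicate 3. The oligodendrocyte list summed to 276 and 383 CPM in cKO replicates 1 and 3 and to 297 and 269 CPM in WT replicates 2 and 3, with 6 of its 8 members ordered that way. So were 4 of 6 astrocyte markers, 3 of 4 endothelial markers, 4 of 8 striatal neuron markers and 3 of 8 excitatory neuron markers. Also ordered that way were 1 of 10 parvalbumin neuron markers, 2 of 7 other interneuron markers and 2 of 4 microglia markers. That held for 2 of 4 genes listed for RNA quality too, beside 26% of all tested genes. The order was taken from Cacna1e, and only 1 of the 5 pore genes had it. Mobp, Mog and Mag, defining genes of oligodendrocytes, were above 0 in each library, Mog at only 22 to 38 counts. These genes followed that order, whereas Mbp and Cspg4 of the same list did not. Mbp had 76.6 and 78.5 CPM in WT replicates 2 and 3, and Cspg4 had 1.65 and 2.82 CPM. The part of these cells in the Cacna1e values was not tested.

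**Figure D1:**
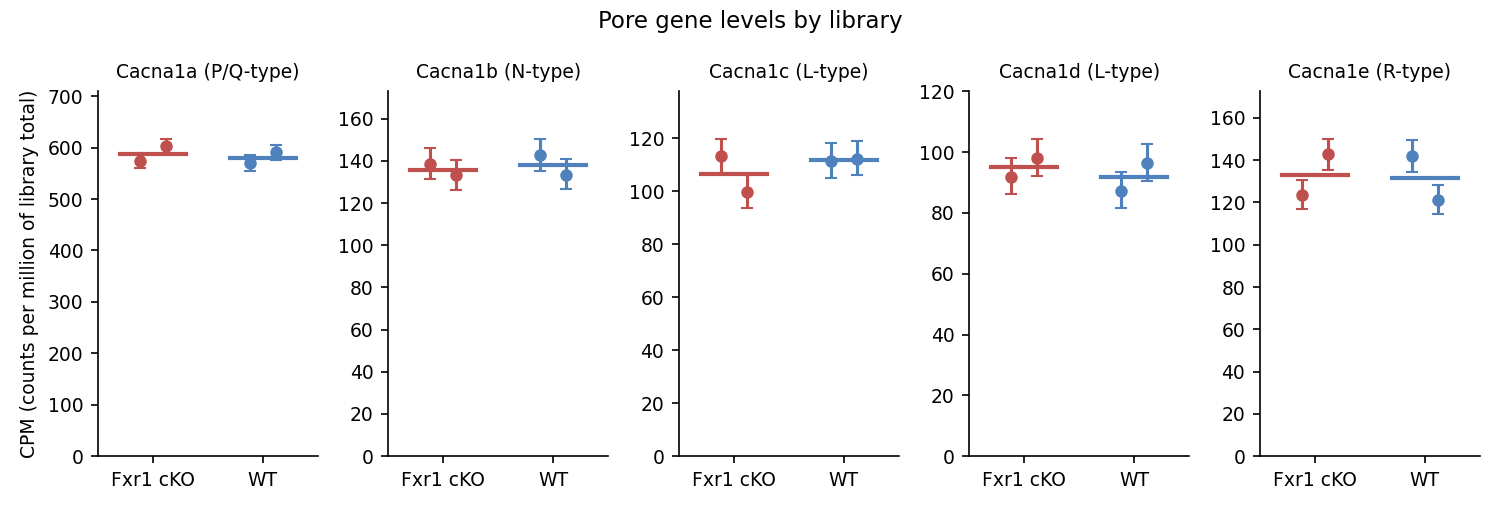
Level of each pore gene by library, in CPM, with axes from 0. Points are single libraries with exact Poisson 95% intervals and horizontal lines are means of 2 libraries. The cKO and WT libraries overlapped for each of the 5 genes, and Cacna1e held one library near 142 and one near 122 CPM in either genotype.

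None of the 5 members passed the test of cKO against WT by edgeR, and 0 had an unadjusted p under 0.05, the smallest being 0.408 for Cacna1c. The DESeq2 Wald test and limma voom also called 0 of 5. Over all tested genes 4 passed (0.0321%) and 402 had an unadjusted p under 0.05 (3.23%). The genotypes did not overlap for 0 of 5 members, against 30.2% of tested genes, of which 14.8% had both cKO libraries above both WT libraries and 15.4% had them below. By sign alone 3 of 5 members were higher in cKO, beside 49.6% of all tested genes, and 2 of 5 lower, beside 50.4%. The median log2 fold change was 0.02 for the 5 members and −0.0015 for all tested genes. Without cKO replicate 1, the library with the high Rn45s, the log2 fold changes were 0.041 for Cacna1a, −0.063 for Cacna1b, −0.18 for Cacna1c, 0.083 for Cacna1d and 0.11 for Cacna1e, and 0 of 5 passed by edgeR. A missed threshold does not show that levels were alike. The intervals of the 5 reached at most 15.7% below the WT level, for Cacna1c, and at most 16.9% above it, for Cacna1d. Because they use spread partly pooled over genes, they do not exclude larger changes. That of Cacna1e, which varied most between libraries, may be too narrow.

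**Figure D2:**
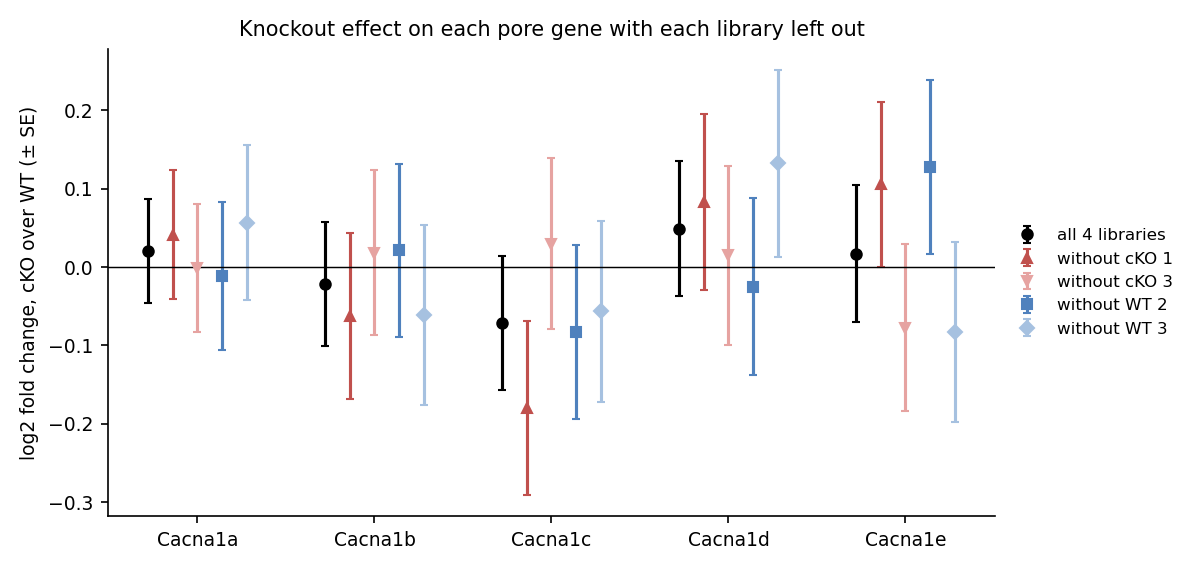
The log2 fold change of each pore gene, cKO over WT, with all 4 libraries and with each library left out in turn. Bars are standard errors and the line marks no change. The value crossed 0 for each gene when one or another library was left out, and none went beyond −0.18 or 0.13.

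Summed over the 5 members, the pore genes took 1041 and 1076 CPM in the cKO libraries and 1053 and 1054 CPM in the WT libraries. The WT values lay between the cKO values. The means, 1059 ± 24.7 CPM in cKO and 1054 ± 0.795 CPM in WT (SD, n = 2 each), differed by 4.85 CPM (exact two-sided permutation p = 1.0). The family as a whole thus took 0.104% and 0.108% of all counts in the cKO libraries and 0.105% in each WT library.

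Shares were first taken of the summed counts, with no correction for length. Cacna1a took 55.1% and 56.0% of the counts in the cKO libraries, against 54.1% and 56.0% in the WT libraries. The exact Clopper-Pearson 95% intervals of these shares reached about 1 percentage point to either side, from 53.1% to 55.1% in WT replicate 2 for example. Cacna1b took 13.3% and 12.4% in cKO and 13.6% and 12.7% in WT. The L-type genes together took 19.7% and 18.4% in cKO and 18.9% and 19.8% in WT. Cacna1e took 11.9% and 13.3% in cKO and 13.5% and 11.5% in WT. For each of the 5 genes the genotypes overlapped, and the difference of the mean shares lay between −0.56 percentage points for Cacna1c and 0.50 points for Cacna1a. The exact permutation p was 0.667 for Cacna1b and 1.0 for the other members. Cacna1a counts outnumbered those of Cacna1b 4.15 and 4.52 times in cKO and 3.99 and 4.43 times in WT, a difference of 0.043 in the mean log2 ratio (exact permutation p = 0.667).

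With all 10 pore genes of the family as the denominator, the T-type genes and the muscle and retina genes included, Cacna1a took 47.2% and 47.8% in cKO and 45.4% and 46.9% in WT. On that scale both cKO libraries lay above both WT libraries, by 1.35 percentage points in the mean (exact permutation p = 0.333, the smallest possible). The summed CPM of the T-type genes, which are part of that denominator, was 175 and 182 in cKO and 201 and 205 in WT.

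**Figure D3:**
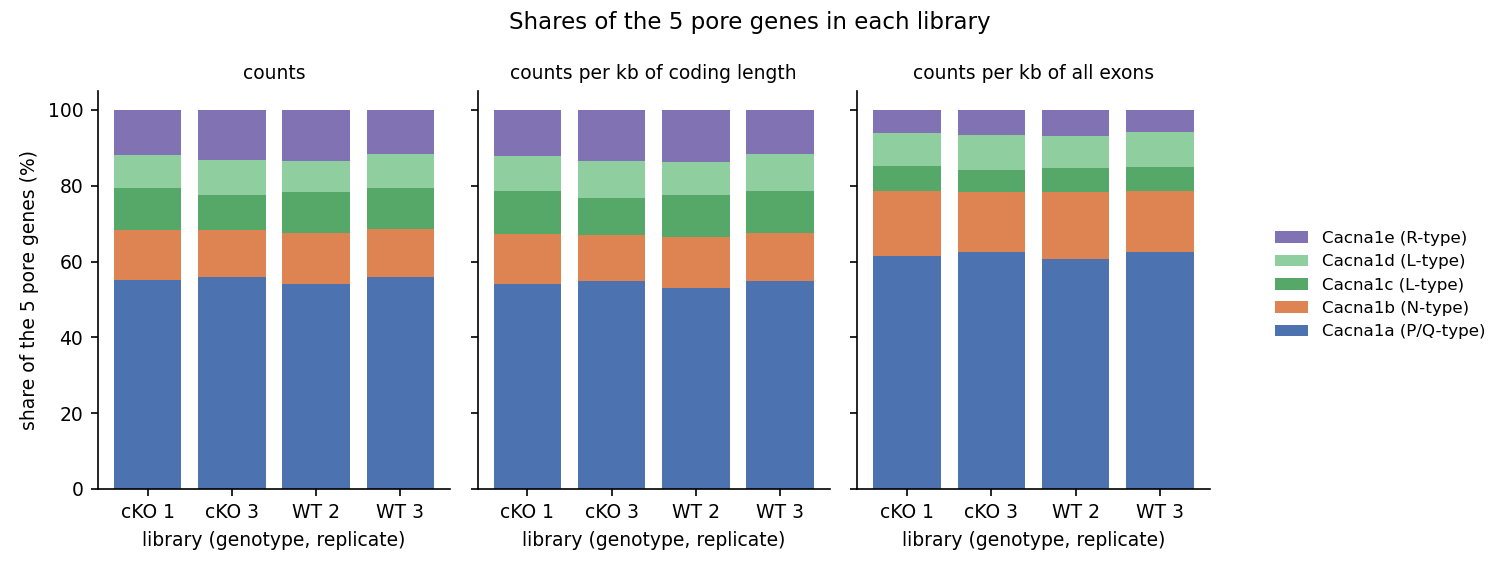
Share of each pore gene in the 5 genes together, in percent, for each library. The panels use counts, counts per kb of the longest coding sequence and counts per kb of all annotated exons. Cacna1a took between 52.9% and 62.6% in each library on each scale, and the bars of cKO and WT libraries differed little.

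Levels were compared between genes per length. Per kb of annotated exon, Cacna1a averaged 51.2 ± 1.32 CPM per kb over the 4 libraries (SD, n = 4) and ranked 638 of 11684 tested genes with a length, in the top 5.46%. Cacna1b followed at 13.8 ± 0.457 CPM per kb and Cacna1d at 7.41 ± 0.384, each apart from its neighbours in every library. Cacna1e at 5.25 ± 0.457 and Cacna1c at 5.16 ± 0.301 CPM per kb overlapped, and each was higher in 2 of the 4 libraries. On this scale Cacna1a took 61.5% and 62.6% of the pore-gene total in the cKO libraries and 60.8% and 62.4% in the WT libraries.

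The order below Cacna1a depended on the length used, since Cacna1c and Cacna1e have far more annotated exon than coding sequence. Per kb of longest coding sequence, Cacna1a averaged 82.2 ± 2.12 CPM per kb, 4.19 times Cacna1b at 19.6 ± 0.651. Cacna1e came next to Cacna1b at 19.4 ± 1.69 and overlapped with it, followed by Cacna1c at 16.4 ± 0.956 and Cacna1d at 14.3 ± 0.741, which overlapped too. Per kb of the transcript with the longest coding sequence, Cacna1e was last at 8.87 ± 0.773 CPM per kb. Cacna1a was first on each scale, 3.71 to 4.19 times the next gene. Which transcripts were present was not measured.

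**Figure D4:**
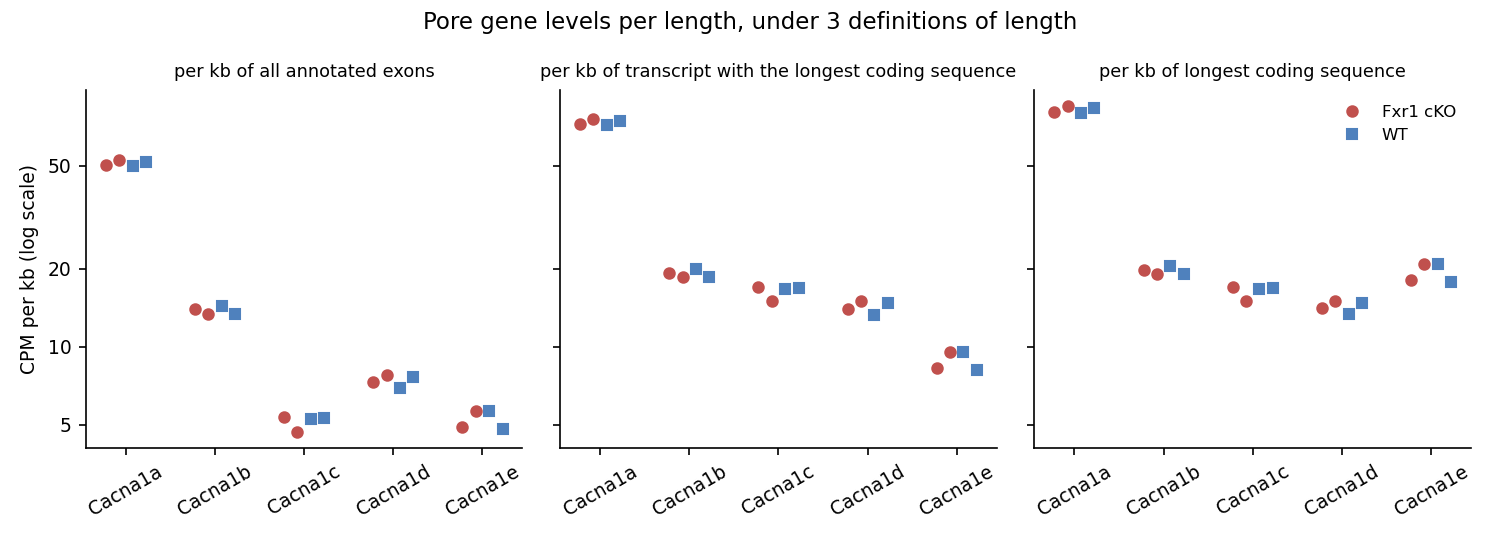
Levels of the pore genes in CPM per kb, on a log axis, for each library, with 3 definitions of gene length. Cacna1a stood highest in each panel, from 49.9 to 84.8 CPM per kb. Cacna1e stood beside Cacna1c per kb of exon and beside Cacna1b per kb of coding sequence.

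The other pore genes of the family were measured beside them. The T-type genes encode low-voltage-activated channels that open near the resting potential. Cacna1i had 137 and 140.1 CPM in cKO and 143 and 159 CPM in WT, with both cKO libraries below both WT libraries, as for 15.4% of tested genes. Its log2 fold change of −0.12 (SE 0.08) did not pass, at an adjusted p of 0.998 by edgeR. Cacna1g had 24.1 and 28.2 CPM in cKO and 35.1 and 22.3 CPM in WT, with a log2 fold change of −0.13 (SE 0.19). Cacna1h had 14.3 and 14.1 CPM in cKO and 22.8 and 23.9 CPM in WT, with both cKO libraries below both WT libraries. Its log2 fold change of −0.72 (SE 0.14) narrowly missed the threshold, at an adjusted p of 0.052 by edgeR. Its 95% interval, −1.0 to −0.43 on the log2 scale, lay wholly below those of the 5 high-voltage genes, the lowest of which began at −0.25. Whether its change differed from theirs was not tested. Cacna1s, the skeletal muscle L-type gene, had 8 and 9 counts in cKO and 9 and 5 in WT. Cacna1f, the retinal one, had 2 and 1 counts in cKO and 1 and 0 in WT, and neither was tested.

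None of the genes of the subunits that assemble with the pores passed. Of the 4 beta subunit genes, which carry the pore to the membrane and set its gating, 1 was higher and 3 lower in cKO and 0 passed by edgeR, with 0 at an unadjusted p under 0.05. Cacnb1 (log2 fold change 0.10, SE 0.11) and Cacnb3 (−0.07, SE 0.09) had the smallest p. Cacnb4 had the most counts of the 4, at 351 and 395 CPM in cKO and 376 and 394 CPM in WT. Of the 4 alpha2delta subunit genes, which raise the number of channels at the surface, 2 were higher and 2 lower and 0 passed, with 0 at an unadjusted p under 0.05. Cacna2d2 had 501 and 529 CPM in cKO and 541 and 565 CPM in WT (log2 fold change −0.10, SE 0.07). Both its cKO libraries lay below both WT libraries, as for 15.4% of tested genes. Cacna2d3 went the other way, with both cKO libraries above both WT libraries, as for 14.8% of tested genes. The log2 fold change of Cacna2d1 was 0.14 (SE 0.11).

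**Figure D5:**
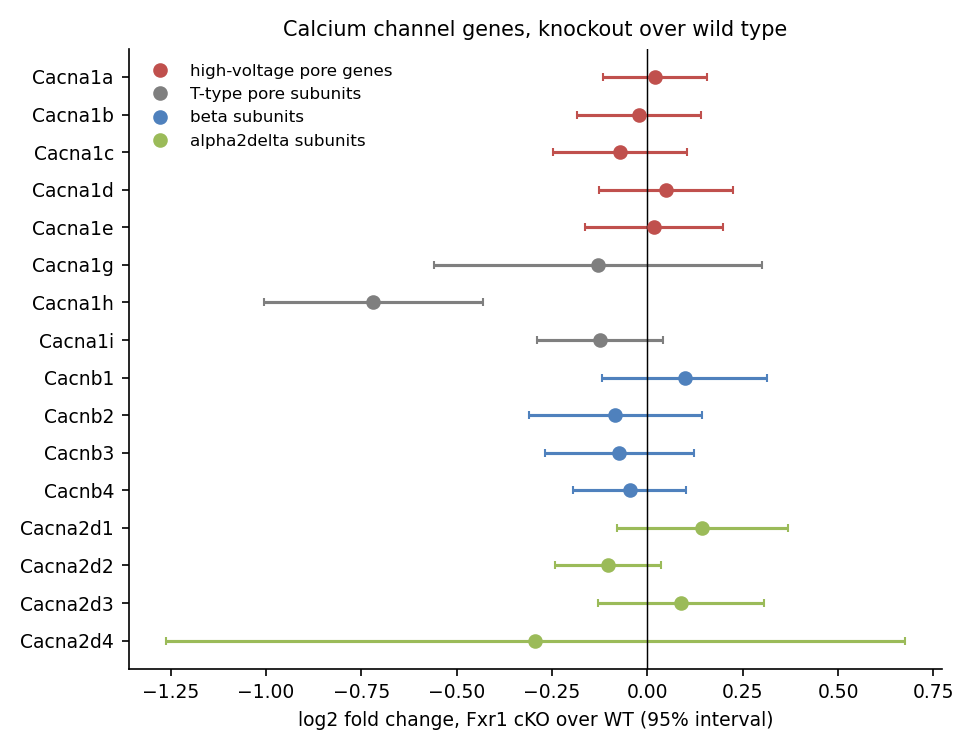
The log2 fold change, cKO over WT, of calcium channel genes with 95% intervals from the edgeR fit. The vertical line marks no change. The 5 high-voltage pore genes sit between −0.07 and 0.05, and of the genes drawn Cacna1h alone has an interval that leaves out 0.

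Genes that act with these channels were counted by list. The 17 release site partners hold P/Q-type and N-type channels near vesicles or release the vesicles. Of these, 12 were higher and 5 lower in cKO by sign, the median log2 fold change being 0.05. Over all tested genes 49.6% were higher and the median was −0.0015. By edgeR 0 passed, with 0 at an unadjusted p under 0.05, beside 3.23% of all tested genes. The scaffold gene Bsn had 1397 and 1145 CPM in cKO and 1147 and 1098 CPM in WT (log2 fold change 0.18, SE 0.09), and Unc13a, a vesicle priming factor gene, had 444 and 574 CPM in cKO and 422 and 465 CPM in WT (0.20, SE 0.11). Bsn was high in cKO replicate 1, the library with the high Rn45s, and Unc13a in cKO replicate 3, so a different library led each. The scaffold gene Pclo, named after its values were seen, was also highest in cKO replicate 1, with 1590.2 and 1259 CPM in cKO and 1274 and 1254 CPM in WT. Whether the high Rn45s of that library bears on these values was not tested. Modulators of the channels were higher in 6 and lower in 7 of 13 members, and 0 passed, with 0 at an unadjusted p under 0.05. Stac2, which encodes an adaptor that slows the inactivation of L-type channels, had 286 and 274 CPM in cKO and 248 and 263 CPM in WT (log2 fold change 0.13, SE 0.07). Calm2, a calmodulin gene, had a log2 fold change of −0.08 (SE 0.06). Among 5 genes of calcium-activated potassium channels, which open on the calcium these pores admit, 3 were higher and 2 lower and 0 passed, with 0 at an unadjusted p under 0.05. Kcnn1 stood at 0.21 (SE 0.17) and Kcnn3 at −0.21 (SE 0.27).

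The 5 members did not all rank the 4 libraries alike. Cacna1a and Cacna1d had the same order, highest in cKO replicate 3 and lowest in WT replicate 2, whereas Cacna1b was highest in WT replicate 2. Correlations between the members were not computed. By Pearson correlation of log2 CPM among 8423 other genes of at least 10 CPM, the genes most like Cacna1a were Caprin1, Clcn7 and Esrrb, with r from 0.99902 to 0.99954. Those most like Cacna1b were Kif1c, Thy1 and Hn1 (0.99949 to 0.99997). Those most like Cacna1c were Ikbkap, Pvrl3 and Metap2 (0.9993 to 0.99959), and those most like Cacna1d were H3f3b, Ipo9 and Chst10 (0.99903 to 0.99955). For Cacna1e they were 2010300C02Rik, Wdr60 and Ctdspl (0.9994 to 0.99996). These values describe 4 points, which share their library and its depth. Between 19 genes (for Cacna1e) and 66 genes (for Cacna1a) reached an r of 0.99, and the whole range of a member over the libraries was 0.0775 to 0.213 on the log2 scale.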

How the data were processed

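The submitters' processing notes name STAR as aligner and mm10 as build. Its version, the counter, the annotation and the strand setting used are not stated there. The deposited table holds unnormalized whole-number counts for each symbol. The labels' protocols name the SMARTer Stranded Total RNA-Seq kit for the immunoprecipitated RNA. Columns were used where the name matched the title of 1 sample and no other column. This held for 4 columns, and 2 columns, which carry the same title, were not used. Replicate numbers follow accession order and pair no samples.

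CPM values were computed from the deposited counts and library totals. Counts were tested with edgeR 4.0.16 in R 4.3.3 (TMM, filterByExpr, robust quasi-likelihood fit, cKO over WT, Benjamini-Hochberg over 12449 genes, threshold 0.05). TMM factors lay between 0.9908 and 1.009. DESeq2 1.42.0 and limma 3.58.1 gave alternatives. The test was tested on simulated data, drawn with the spread fitted as a trend over genes. That check does not cover a gene whose own spread exceeds the trend. Lengths and coordinates are from GENCODE M21 (mm10), matched by symbol for 11684 tested genes. The symbols Tspoap1, Cbarp and Drd1 were matched through RefSeq synonyms. Binomial, Poisson and permutation values are from SciPy 1.17.1.

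Members and gene lists were chosen with earlier results of these data known. Named genes were the 5 members, Fxr1, the T-type genes, the 2 members with the smallest p of each list described, and the 3 genes most like each member. Cacnb4, Cacna2d3, Chdh, Gm16183, Rn45s, Pclo, Cacna1s, Cacna1f and the markers are named for their levels or position. One sequence comparison among the members is not reported here.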

Additional observations from a re-analysis of the deposited data

How the results depend on the processing

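Of 60 fits of the 5 members under 12 alternatives each, 0 passed the threshold, and the lowest adjusted p was 0.99. Another scaling, filter or test left each direction as it was. Leaving out single libraries turned the sign 8 times: for Cacna1a and Cacna1b without cKO replicate 3 or WT replicate 2, for Cacna1c without cKO replicate 3, for Cacna1d without WT replicate 2, and for Cacna1e without cKO replicate 3 or WT replicate 3. The log2 fold changes then ran from −0.012 to 0.057 for Cacna1a, −0.063 to 0.021 for Cacna1b, −0.18 to 0.030 for Cacna1c, −0.025 to 0.13 for Cacna1d and −0.083 to 0.13 for Cacna1e. A genotype left with 1 library was assumed to vary like the other genotype. Fxr1 passed under all 12 alternatives (−2.47 to −2.42). The 4 changed genes became 1 with library totals, 2 by the DESeq2 Wald test, 13 with no filter on low counts and 9 to 48 without single libraries; the cause was not tested. Per kb of coding sequence in place of exon, Cacna1e ranked 3, Cacna1c 4 and Cacna1d 5 among the members, and per kb of transcript Cacna1c ranked 3, Cacna1d 4 and Cacna1e 5, because the lengths differ. Leaving out libraries moved the difference in summed CPM between −12.6 and 22.3, and differences in share between −1.36 and 1.47 percentage points, with the sign turning for the sum and for each member's share. With 2 libraries per genotype, the size of such a shift is fixed by their spread and says nothing of stability. No paired analysis was possible because replicates were numbered by accession and share no label that pairs them. Members had 847 to 6196 counts in a library. At each member's mean count over the 4 libraries, counting error is 1.3% to 3.25%, against a spread over the 4 libraries of 2.58% to 8.71%.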
